A study of Homo sapiens with 6 samples.

Results

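The subunits of RNA polymerases I, II and III were examined in ZR-75-1, a human breast cancer cell line that carries the estrogen receptor, after 4 days with 500 nM abemaciclib, an inhibitor of CDK4 and CDK6, or with the same volume of DMSO. Each treatment had 3 libraries of parental cells, in which RB1 was not edited, grown in the same medium with serum, and the libraries are called DMSO or abemaciclib replicates 1 to 3. Members were chosen by name: every protein-coding gene whose Ensembl identifier carries a symbol that starts with POLR1, POLR2 or POLR3 and a letter, apart from 1 that the rule leaves out. This gave 33 of the 60656 genes counted, under 32 symbols, since POLR2J3 is carried by a pair of identifiers. The filter on low counts kept 30 of them for the test. The study's text describes the ZR-75-1 RNA-seq as 1 experiment with independent biological replicates of 1 cell line.

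RNA polymerase I makes the large ribosomal RNA precursor in the nucleolus, RNA polymerase II makes messenger RNA, and RNA polymerase III makes transfer RNA, 5S ribosomal RNA and other short RNAs. Each enzyme is built around its own pair of large subunits that form the active site, and smaller subunits are either particular to 1 enzyme or shared. POLR1C and POLR1D are part of polymerases I and III, and POLR2E, POLR2F, POLR2H, POLR2K and POLR2L are part of all 3 enzymes. Polymerases I and III supply the ribosomes and transfer RNAs that growing cells need, and Rb, which CDK4 and CDK6 inactivate, is known as a repressor of both. The RNAs made by polymerases I and III mostly lack a poly(A) tail and are not captured by the 3′ mRNA libraries used here, so the values below concern the messenger RNAs of the subunits, not the activity of the enzymes.

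Reads of a 3′ mRNA library come from the end of a transcript, so that long and short transcripts give the same number of counts. The libraries held 3317860 to 4013156 counts. Levels are given as CPM, which are counts divided by the TMM-scaled library total, and in bulk RNA fewer transcripts per cell and fewer cells with the transcript cannot be told apart. In a library a count of 0 allowed 0.748 to 0.904 CPM, and this limit covers counting error alone. The luminal markers ESR1, GATA3, FOXA1, KRT8, KRT18 and KRT19 summed to 6539 to 7106 CPM with DMSO and 7423 to 8527 CPM with abemaciclib. KRT19 was the largest part of the sum. ESR1 and KRT19 rose (means of 210.6 to 373.2 CPM and 3131 to 4280 CPM), KRT18 fell (689.4 to 542.7 CPM, adjusted p = 0.00515), and GATA3, FOXA1 and KRT8 did not pass the test. Of the 15 markers of basal, fibroblast, immune and endothelial cells, 10 had no count, among them KRT5, KRT14, TP63, PTPRC, CD3E and PECAM1. The basal list summed to 6.09 to 13.3 CPM with DMSO and 0.493 to 1.82 CPM with abemaciclib, all of it ACTA2, and no other of these lists exceeded 15.8 CPM in a library. The part of these shifts in the values below was not tested. MKI67, a marker of cycling cells, was at 494.0 to 556.7 CPM with DMSO and 3.21 to 7.57 CPM with abemaciclib.

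Of the 30 subunits tested, 4 rose and 3 fell at an adjusted p under 0.05 (edgeR's quasi-likelihood test, adjusted over 10863 genes). POLR1B of polymerase I, POLR2G of polymerase II, POLR3E of polymerase III and the shared POLR2L rose, and the shared POLR2F and POLR2H and the polymerase II subunit POLR2I fell. These changes ranged from a mean level that fell by 37.5% for POLR2F to one that rose by 65.7% for POLR3E. The 23.3% of subunits called stood beside 25.7% of all genes tested, so the subunits were not called more often than other genes. By direction, 13.3% of the subunits rose against 12.5% of all genes, and 10.0% fell against 13.3% of all genes. The median log2 fold change of the subunits was 0.10, against 0.00 for all genes tested, and 21 of the 30 values were above 0, against 5413 of 10863. The median size of the log2 fold change, whatever its sign, was 0.21 for the subunits and 0.32 for all genes. The genes were not matched by level for this comparison, so it cannot show that the subunits moved less. In 12 of the 30, or 40.0%, every abemaciclib library lay on the same side of every DMSO library, beside 39.1% of all genes tested. Of these 12, 7 were higher and 5 lower, beside 19.1% and 20.1% of all genes.

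**Figure D1:**
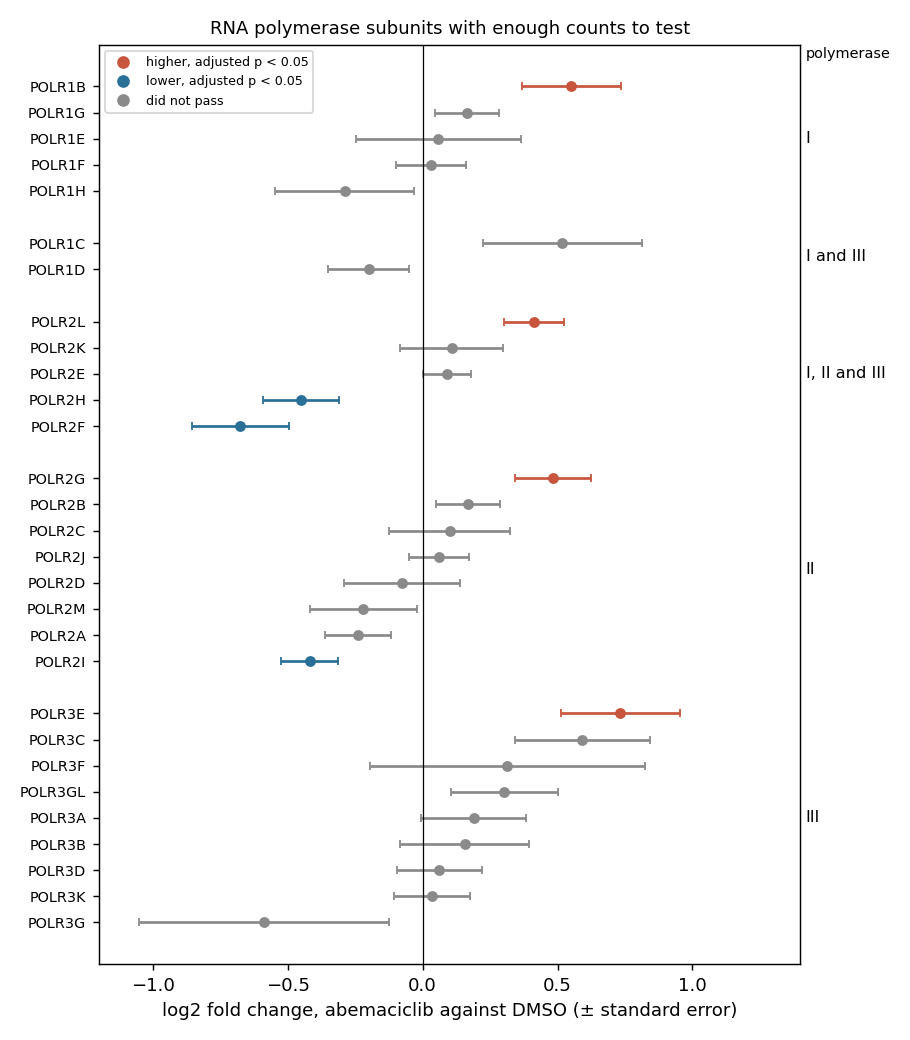
Log2 fold change of 29 of the 30 subunits tested, abemaciclib against DMSO, with the standard error as the bar, grouped by the polymerase that holds the subunit. Red points rose and blue points fell at an adjusted p under 0.05. The 7 coloured points lie between -0.67 for POLR2F and 0.73 for POLR3E and belong to every group except that of POLR1C and POLR1D.

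The promoters of the changed subunits are shown because Rb represses cell cycle genes through E2F factors at promoters. The letters before the start of a gene whose transcript moved can thus be seen. The study also reports Rb at sites outside promoters after inhibition of CDK4 and CDK6, and such sites were not searched here. RefSeq's promoter table on GRCh38.p14 held entries for 22 of the 30 subunits tested, and for 5 of the 7 that changed. Those of POLR2G and POLR2I had no entry. The start is that of the MANE Select transcript in the RefSeq table, which for POLR1B, POLR2F and POLR3E lies inside the widest gene bounds given below. The 250 bases before it are printed from 5′ to 3′ on the strand of the gene, for POLR2F (chr22:37953449-37953698, plus strand), POLR2H (chr3:184361460-184361709, plus strand), POLR2L (chr11:842530-842779, minus strand), POLR1B (chr2:112542215-112542464, plus strand) and POLR3E (chr16:22297159-22297408, plus strand). Capitals mark matches on either strand to any of 5 short motifs: E2F (spelled TTCCCGC, or in other forms as TTCGCGC, and further as TTGCCGC and likewise as TTGGCGC), the cell cycle homology region CHR (TTTGAA and the related TTCGAA), ETS (CCGGAAG), NRF1 (GCATGCG) and YY1 (AAGATGG).
POLR2F: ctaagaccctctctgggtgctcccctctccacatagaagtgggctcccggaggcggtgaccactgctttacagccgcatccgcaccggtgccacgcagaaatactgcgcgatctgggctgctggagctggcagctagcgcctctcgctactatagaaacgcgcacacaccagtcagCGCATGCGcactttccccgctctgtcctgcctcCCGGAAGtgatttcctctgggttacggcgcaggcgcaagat
POLR2H: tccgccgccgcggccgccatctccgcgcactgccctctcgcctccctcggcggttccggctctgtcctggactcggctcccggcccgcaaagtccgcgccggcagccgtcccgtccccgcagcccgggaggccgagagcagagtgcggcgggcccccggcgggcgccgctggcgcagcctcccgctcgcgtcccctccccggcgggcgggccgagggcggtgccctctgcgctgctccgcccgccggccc
POLR2L: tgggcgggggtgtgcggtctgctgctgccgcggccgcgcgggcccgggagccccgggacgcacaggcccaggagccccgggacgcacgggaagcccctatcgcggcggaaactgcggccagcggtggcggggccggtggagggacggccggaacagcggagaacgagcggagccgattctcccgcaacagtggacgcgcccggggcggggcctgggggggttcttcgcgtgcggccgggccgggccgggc
POLR1B: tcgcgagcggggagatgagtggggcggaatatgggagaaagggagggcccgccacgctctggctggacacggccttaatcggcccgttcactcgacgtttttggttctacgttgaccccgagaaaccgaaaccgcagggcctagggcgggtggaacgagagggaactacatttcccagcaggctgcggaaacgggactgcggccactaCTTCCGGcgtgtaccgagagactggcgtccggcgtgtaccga
POLR3E: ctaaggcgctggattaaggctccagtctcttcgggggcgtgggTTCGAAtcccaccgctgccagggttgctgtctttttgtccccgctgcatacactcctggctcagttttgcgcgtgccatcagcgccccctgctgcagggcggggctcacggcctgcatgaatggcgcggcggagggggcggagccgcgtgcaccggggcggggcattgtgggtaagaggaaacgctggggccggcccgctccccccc

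None of these 5 stretches held the E2F letters, which 10.9% of 35116 promoters of the same length held. Those 35116 promoters include several starts for some genes, and genes not tested here, while 1 start was taken for each subunit. The shares of all promoters, here and below, are therefore not matched to the subunits. E2F letters were present in 6 of the 22 subunit promoters, all of genes that did not pass the test: POLR1F, POLR2A, POLR2E, POLR2M, POLR3C and POLR3K. Only 5 of the 22 promoters were of changed genes, too few to tell changed from other subunits by these letters. The bases after the start were not searched. ETS letters stood in the promoters of POLR1B and POLR2F and in 6 of the 22 in all, against 8.52% of all promoters. The longer run of capitals in POLR2F held the NRF1 letters on both strands, in 2 matches that overlap. NRF1 letters were found in 1 of the 22 subunit promoters and in 3.39% of all promoters. The stretches of POLR2H and POLR2L, with 82.0% and 79.2% G or C, held no match. YY1 letters were in none of the 22, and in 3.70% of all promoters. CHR letters were in 2 of the 22, those of POLR2A and POLR3E. These matches describe letters in a window and are not binding data.

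The POLR3E stretch opens inside a gene that polymerase III itself transcribes. RefSeq places the leucine transfer RNA gene TRL-AAG2-4 at chr16:22297140-22297221 on GRCh38.p14, ending 187 bases before the RefSeq start of POLR3E, which is the base after the last one printed. The first 63 bases printed for POLR3E are the last 63 bases of that gene. The capitals TTCGAA, at 22297202 to 22297207, match the CHR letters, which 14.3% of all promoters held, and lie within the transfer RNA gene. Transfer RNAs are not measured by these libraries.

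Polymerase I was represented by POLR1B, POLR1E, POLR1F, POLR1G and POLR1H. POLR1B (chr2:112541915-112579818 on GRCh38, as for the genes below), the second largest subunit and part of the active site, was at 22.6, 25.8 and 32.7 CPM in the DMSO libraries and at 40.8, 39.5 and 38.6 CPM in the abemaciclib libraries. The groups did not overlap, and DMSO replicate 3 lay closest to the treated libraries. The mean rose from 27.1 ± 5.15 CPM to 39.7 ± 1.11 CPM (mean ± SD of n = 3), which is a log2 change of 0.55 (SE, the standard error, of 0.18, adjusted p = 0.0258). This call was not firm: the adjusted p was 0.0658 with DESeq2, 0.136 without DMSO replicate 1, 0.0932 without DMSO replicate 2, 0.0611 without abemaciclib replicate 1 and 0.0615 without abemaciclib replicate 2. The 3′ end of POLR1B lies over a Y RNA gene of the opposite strand, which had 0 counts in the 6 libraries.

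The other polymerase I subunits did not pass the test. POLR1E and POLR1G, which form a dimer that helps the enzyme start and elongate, had log2 fold changes of 0.06 (SE 0.31) and 0.16 (SE 0.12). POLR1G was at 87.9 to 94.2 CPM with DMSO and 95.5 to 107.3 CPM with abemaciclib, without overlap. POLR1F, a subunit of the stalk, had a log2 fold change of 0.03, and its levels of 67.8 to 87.0 CPM with DMSO enclosed those with abemaciclib, from 78.7 to 85.9 CPM. POLR1H, a small subunit that helps cleave the RNA in the active site, was at 14.2 to 17.5 CPM with DMSO and 11.2 to 14.1 CPM with abemaciclib, a log2 fold change of -0.29 (SE 0.26). In all, 1 of the 5 polymerase I subunits rose and 0 fell, beside 12.5% and 13.3% of all genes tested. At an unadjusted p under 0.05 with edgeR 0 were lower, and with DESeq2 0 were called higher or lower. For such counts here and below, 1940 of the 10863 genes tested were higher and 1986 lower at an unadjusted p under 0.05. With DESeq2, 1041 of them were higher and 1126 lower. The median log2 fold change of the polymerase I subunits was 0.06.

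POLR1C and POLR1D form the dimer around which polymerases I and III are assembled, and both are known from Treacher Collins syndrome. POLR1C was at 10.2, 10.4 and 8.78 CPM with DMSO and 14.5, 10.1 and 17.6 CPM with abemaciclib. Abemaciclib replicate 2 fell within the DMSO range, and the log2 fold change of 0.52 (SE 0.29, adjusted p = 0.211) did not pass. POLR1D was at 62.4, 75.2 and 64.2 CPM with DMSO and 60.8, 46.9 and 68.4 CPM with abemaciclib, with groups that overlapped and a log2 fold change of -0.20 (SE 0.15, adjusted p = 0.368). Neither was called in either direction by edgeR or by DESeq2, and 0 had an unadjusted p under 0.05. Abemaciclib replicate 2 was the lowest treated library for both genes, and within libraries the log2 ratio of POLR1C to POLR1D was -2.56, -2.80 and -2.80 with DMSO and -2.03, -2.16 and -1.93 with abemaciclib. This ratio was higher by 0.68 with abemaciclib and its groups did not overlap (two-sided exact permutation test, p = 0.1, the lowest that 3 libraries against 3 allow, or 0.267 adjusted over 8 pairs of partner subunits). The pairs were chosen after the values had been seen, so the p-values of these ratios, here and below, are descriptive.

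Among the 5 subunits held by all 3 enzymes, 1 rose and 2 fell, or 60.0% called beside 25.7% of all genes tested, a difference that over 5 genes was not tested. POLR2F, known as RPB6 (chr22:37952607-38041915), was at 45.0, 52.9 and 40.9 CPM with DMSO and 30.0, 33.3 and 23.5 CPM with abemaciclib. Its gene bounds run past the end of its MANE Select transcript at 37969312, and 3′ ends beyond it were not checked for overlap. Every treated library lay below every DMSO library. The mean fell from 46.2 ± 6.09 CPM to 28.9 ± 4.98 CPM (mean ± SD of n = 3), which is a log2 change of -0.67 (SE 0.18, adjusted p = 0.00559), and without DMSO replicate 2 the value was -0.57 with an adjusted p of 0.0552. POLR2H, known as RPB8 (chr3:184361710-184368596), was at 84.1, 68.6 and 70.6 CPM with DMSO and 48.1, 55.8 and 59.2 CPM with abemaciclib. Its groups did not overlap, with DMSO replicate 1 the highest library. The log2 fold change of POLR2H was -0.45 (SE 0.14, adjusted p = 0.0179), with an adjusted p of 0.125 without DMSO replicate 1 and 0.0823 without abemaciclib replicate 1.

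POLR2L, known as RPB10 (chr11:837356-842529), moved the other way. It was at 170.8, 171.7 and 222.3 CPM with DMSO and 270.5, 243.8 and 237.5 CPM with abemaciclib, and all 3 treated libraries lay above all 3 DMSO libraries. The log2 fold change was 0.41 (SE 0.11, adjusted p = 0.00605), and the adjusted p was 0.0618 without DMSO replicate 1 and 0.0695 without DMSO replicate 2. The 3′ end of POLR2L overlaps exons of CD151 on the opposite strand, which was at a mean of 70.0 CPM with DMSO and 82.9 CPM with abemaciclib and did not pass the test (log2 fold change 0.24, adjusted p = 0.198). The part of CD151 in the result was not tested.

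The remaining shared subunits did not pass. POLR2E, or RPB5, the most abundant member in every library, was at 628, 696 and 687 CPM with DMSO and 755, 711 and 675 CPM with abemaciclib, a log2 fold change of 0.09 (SE 0.09, adjusted p = 0.514). With this count the standard error was the smallest among the members. The 3′ end of POLR2E overlaps ARHGAP45 on the opposite strand, which was at a mean of 21.8 and 26.9 CPM and did not pass. POLR2K, or RPB12, was at 23.8 to 37.6 CPM with DMSO and 31.3 to 36.2 CPM with abemaciclib, a log2 fold change of 0.11 (SE 0.19). Thus the 5 shared subunits, which enter the enzymes in equal numbers, had log2 fold changes of their messenger RNA from -0.67 to 0.41, with a median of 0.09.

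**Figure D2:**
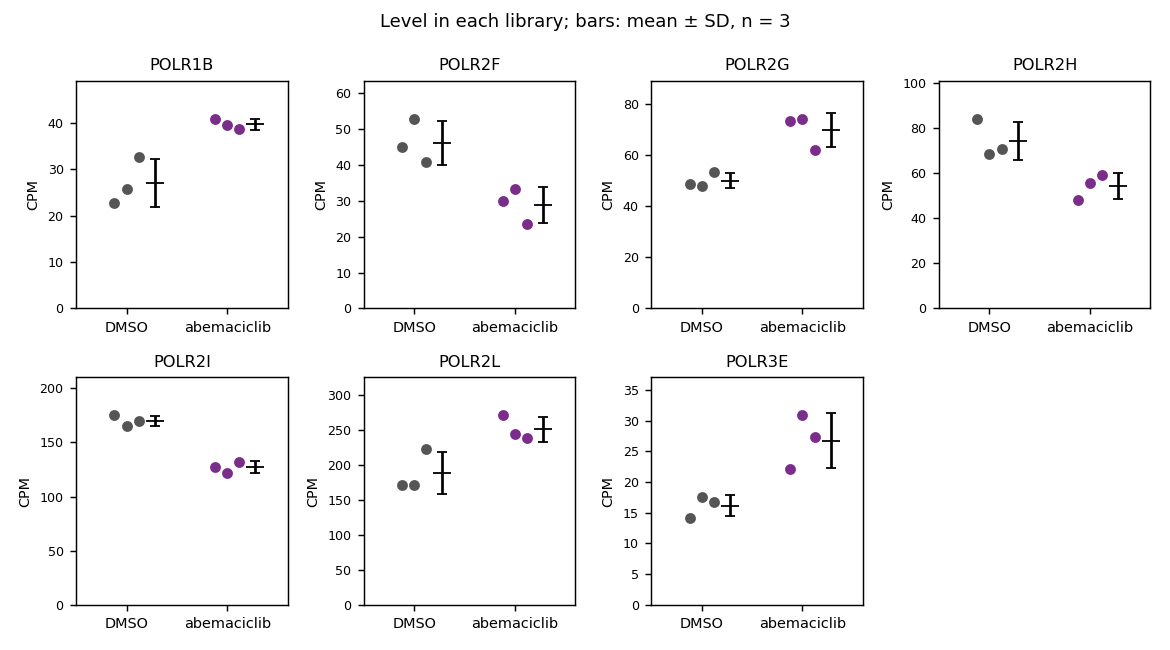
Level in CPM of the 7 subunits that passed the test, in each of the 3 DMSO libraries (grey) and the 3 abemaciclib libraries (purple), with the mean and SD beside them (n = 3). The axes start at 0. In all 7 the groups do not overlap, and the gap was narrow for POLR2L, where DMSO replicate 3 reached 222.3 CPM against 237.5 CPM in the lowest treated library.

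Of the subunits held by polymerase II alone, POLR2I, or RPB9 (chr19:36113709-36115213), a small subunit that keeps transcription accurate, fell. It was at 174.9, 165.5 and 169.3 CPM with DMSO and 127.7, 121.6 and 132.1 CPM with abemaciclib. The lowest DMSO library lay well above the highest treated library, and the libraries of each group lay close together. The log2 fold change was -0.42 (SE 0.11, adjusted p = 0.0037), and POLR2I was the 1 member of the 7 whose call held under all 12 alternatives, with an adjusted p of at most 0.028. Its 3′ end overlaps OVOL3 on the opposite strand, which had 0 counts in the 6 libraries.

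POLR2G, or RPB7 (chr11:62761565-62766710), which forms the stalk of polymerase II with POLR2D, or RPB4, rose. It was at 48.7, 48.1 and 53.3 CPM with DMSO and 73.5, 74.3 and 62.1 CPM with abemaciclib, with no overlap. The log2 fold change was 0.48 (SE 0.14, adjusted p = 0.0117), with an adjusted p of 0.0567 without DMSO replicate 2 and 0.058 without abemaciclib replicate 2. Its stalk partner POLR2D was at 36.8, 27.9 and 28.5 CPM with DMSO and 28.7, 20.0 and 40.0 CPM with abemaciclib, spread widely among the treated libraries, with a log2 fold change of -0.08 (SE 0.22). The log2 ratio of POLR2G to POLR2D was higher by 0.59 with abemaciclib, but the groups overlapped (two-sided exact permutation test, p = 0.3, or 0.48 adjusted over the 8 pairs). POLR2G was itself called higher, so its ratio is not separate from that call.

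The pair of large subunits of polymerase II did not pass the test, although neither overlapped between groups. POLR2A, the largest subunit, whose tail of repeats is phosphorylated as the enzyme moves along the gene, was at 106.2, 97.4 and 99.3 CPM with DMSO and 93.8, 83.4 and 79.7 CPM with abemaciclib, a log2 fold change of -0.24 (SE 0.12, adjusted p = 0.153). POLR2B, the second largest, was at 88.5, 97.4 and 85.4 CPM with DMSO and 101.0, 97.9 and 106.2 CPM with abemaciclib, a log2 fold change of 0.17 (SE 0.12, adjusted p = 0.326). All treated libraries were thus lower for POLR2A and higher for POLR2B. The log2 ratio of POLR2A to POLR2B went from 0.26, 0.00 and 0.22 with DMSO to -0.11, -0.23 and -0.41 with abemaciclib, a difference of -0.41 (two-sided exact permutation test, p = 0.1, the lowest possible here, or 0.267 adjusted over the 8 pairs).

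POLR2C and POLR2J, or RPB3 and RPB11, are the polymerase II counterparts of POLR1C and POLR1D. POLR2C was at 16.1 to 26.1 CPM with DMSO and 20.2 to 27.2 CPM with abemaciclib, a log2 fold change of 0.10 (SE 0.23). POLR2J was at 157.5, 158.0 and 204.5 CPM with DMSO and 189.7, 180.8 and 171.8 CPM with abemaciclib, a log2 fold change of 0.06 (SE 0.11). DMSO replicate 3 exceeded every treated library for POLR2J. The 3′ ends of POLR2C and POLR2J overlap DOK4 and LRWD1 on the opposite strand, at means of at most 5.86 CPM, and neither passed. POLR2J has close copies in POLR2J2 and POLR2J3, and reads that fit several of them could not be assigned with certainty. POLR2J2 had 0 counts in every library, and the pair of POLR2J3 identifiers had 0 to 7 and 1 to 9 counts, too few for the test. For the POLR2J3 identifier ENSG00000285437.1 the counts were 3, 3 and 1 with DMSO and 6, 8 and 9 with abemaciclib. POLR2M, a protein that binds polymerase II and is not one of its core subunits, was at 25.5 to 29.9 CPM with DMSO and 20.6 to 25.9 CPM with abemaciclib, a log2 fold change of -0.22 (SE 0.20). Over the 8 tested members of polymerase II alone, 1 rose and 1 fell, beside 12.5% and 13.3% of all genes tested. Their median log2 fold change was -0.01.

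Polymerase III was represented by 10 subunits of its own, of which 1 rose and 0 fell, beside 12.5% and 13.3% of all genes tested. At an unadjusted p under 0.05, 0 were lower, beside 1986 of all genes tested, and 0 were lower with DESeq2, beside 1126. The log2 fold change was above 0 for 9 of the 10, beside 5413 of the 10863 genes tested, and the median was 0.19. That median was 0.10 without DMSO replicate 1, 0.11 without abemaciclib replicate 3 and 0.29 without DMSO replicate 2. POLR3E, or RPC5 (chr16:22297375-22335101), which with POLR3D forms a dimer that resembles TFIIF, was at 14.2, 17.5 and 16.7 CPM with DMSO and 22.1, 30.8 and 27.3 CPM with abemaciclib. The groups did not overlap, and abemaciclib replicate 2 was the highest library. The mean rose from 16.1 ± 1.72 CPM to 26.7 ± 4.40 CPM (mean ± SD of n = 3), which is a log2 change of 0.73 (SE 0.22, adjusted p = 0.0136). The adjusted p was 0.0644 without DMSO replicate 1 and 0.0789 without abemaciclib replicate 2.

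Its dimer partner POLR3D, or RPC4, was at 42.1 to 44.7 CPM with DMSO and 41.2 to 49.9 CPM with abemaciclib, a log2 fold change of 0.06 (SE 0.16). The spread of POLR3D was small in both groups and its libraries overlapped. The log2 ratio of POLR3E to POLR3D was -1.62, -1.30 and -1.31 with DMSO and -1.16, -0.41 and -0.73 with abemaciclib, higher by 0.64 and without overlap (two-sided exact permutation test, p = 0.1, the lowest possible here, or 0.267 adjusted over the 8 pairs). POLR3E was itself called higher and POLR3D was not, so this ratio is not separate from that call.

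POLR3C, POLR3F and either POLR3G or POLR3GL form the part of polymerase III that opens the promoter. POLR3C was at 12.2, 10.4 and 13.6 CPM with DMSO and 18.5, 17.5 and 18.6 CPM with abemaciclib. The treated libraries were all above the DMSO libraries, but the log2 fold change of 0.59 (SE 0.25) had an adjusted p of 0.0825 and did not pass. POLR3F had 8 to 18 counts per library, and its log2 fold change of 0.31 had a standard error of 0.51, so no difference was detectable at this depth. POLR3GL was at 25.5, 30.9 and 22.4 CPM with DMSO and 26.9, 31.6 and 38.6 CPM with abemaciclib, a log2 fold change of 0.30 (SE 0.20). Its paralogue POLR3G, which is known from stem cells and cancer cells, was at 8.41, 8.32 and 3.33 CPM with DMSO and 2.42, 6.41 and 4.32 CPM with abemaciclib, a log2 fold change of -0.59 (SE 0.46). The paralogues thus had values of opposite sign, and neither passed the test. The log2 ratio of POLR3GL to POLR3G was 1.55, 1.83 and 2.58 with DMSO and 3.23, 2.21 and 3.02 with abemaciclib, with groups that overlapped (two-sided exact permutation test, p = 0.2, or 0.4 adjusted over the 8 pairs).

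The large subunits POLR3A and POLR3B had log2 fold changes of 0.19 (SE 0.19) and 0.16 (SE 0.24). POLR3A varied more within the DMSO group, from 26.7 to 47.3 CPM, than between the groups, with 35.8 to 47.6 CPM under abemaciclib. POLR3B was at 14.2 to 19.0 CPM and 15.3 to 21.8 CPM. POLR3K, a small subunit that cleaves RNA and serves in termination, was at 69.1 to 92.1 CPM with DMSO and 75.0 to 101.1 CPM with abemaciclib, a log2 fold change of 0.04 (SE 0.14).

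The 3 other partner ratios did not differ between the groups beyond their spread. The difference, abemaciclib minus DMSO, was 0.06 for POLR3A to POLR3B (p = 0.9), 0.05 for POLR2C to POLR2J (p = 0.9) and -0.17 for POLR1E to POLR1G (p = 0.8), each from the two-sided exact permutation test and each 0.9 after adjustment over the 8 pairs. The 8 pairs were taken from the known structure of the enzymes after the values had been seen.

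Within each library, the median of a group of subunits was set against the mean of the DMSO libraries on the log2 scale, with 0.5 CPM added. For polymerase III alone the median was -0.08 to 0.16 in the DMSO libraries and 0.09 to 0.38 in the abemaciclib libraries, and for polymerase I alone it was -0.04 to 0.06 and -0.02 to 0.16. For the subunits of all 3 enzymes it was -0.11 to 0.04 with DMSO and 0.01 to 0.13 with abemaciclib, and for polymerase II alone -0.05 to 0.04 and -0.07 to 0.02. The libraries of both treatments overlapped in each of these 4 groups. Abemaciclib replicate 3 had the highest polymerase III median. Over all genes tested the median was between 0.00 and 0.01 in every library.

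**Figure D3:**
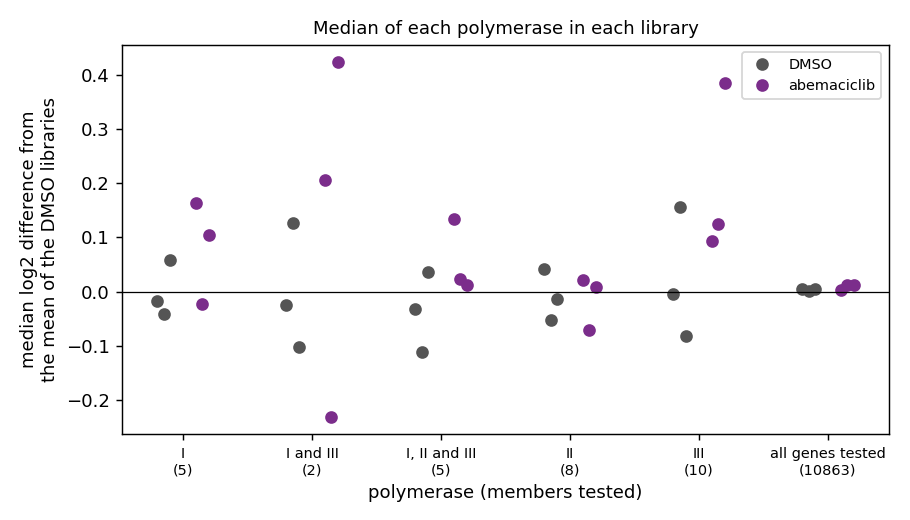
Median, over the tested subunits of each polymerase, of the log2 difference from the mean of the DMSO libraries, for each DMSO library (grey) and abemaciclib library (purple), with all 10863 genes tested at the right. The number of subunits is in parentheses. Treated and untreated libraries overlap in every group of subunits, and polymerase III reaches 0.38 in abemaciclib replicate 3.

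Several subunit genes share their promoter region with another gene. With the start sites of MANE Select transcripts, 10 of 29 tested subunits had a protein-coding gene on the opposite strand that starts within 1000 bases, or 34.5%, beside 15.2% of the 10082 genes tested that have such a start site. Among the 7 changed subunits these were POLR2F, POLR2H, POLR2I and POLR2L. The neighbours of POLR2F and POLR3F, C22orf23 and DZANK1, had too few counts for the test, and of the other 8 neighbours 3 rose and 1 fell, beside 12.5% and 13.3% of all genes tested.

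POLR2L and its neighbour TSPAN4, a tetraspanin whose start lies 323 bases away, both rose, TSPAN4 from a mean of 32.3 CPM to 50.2 CPM (log2 fold change 0.63, SE 0.19, adjusted p = 0.0151). POLR2I and TBCB, a tubulin folding cofactor 593 bases away, both fell, TBCB from a mean of 281.1 CPM to 226.5 CPM (log2 fold change -0.31, SE 0.10, adjusted p = 0.0258). POLR2H lies 105 bases from CLCN2, a chloride channel gene at 4.66 CPM with DMSO and 3.47 CPM with abemaciclib, whose log2 fold change of -0.43 (SE 0.50) did not pass. The neighbours that rose beside subunits that did not pass were RNF115, a ubiquitin ligase 105 bases from POLR3C (log2 fold change 0.51, adjusted p = 0.000622), and YIPF3, a Golgi membrane protein 163 bases from POLR1C (log2 fold change 0.75, adjusted p = 0.00404). For POLR3K the neighbour was SNRNP25 (0.23 on the log2 scale), for POLR3G it was MBLAC2 (-0.08) and for POLR3GL it was ANKRD34A (-0.18), none of which passed. The window and the comparison with neighbours were chosen after the values had been seen, and the sharing of direction was not tested.

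The factors that work with the polymerases were described from lists drawn from general knowledge of the machinery. The share called is set beside the 25.7% of all genes tested. Of 7 polymerase I factors, 1 fell (14.3%), 0 rose (0 at an unadjusted p under 0.05, and 0 with DESeq2) and the median log2 fold change was -0.07. The 1 was TAF1B, part of the SL1 complex that brings polymerase I to the ribosomal DNA promoter, which fell from 14.9 ± 0.76 CPM to 6.77 ± 1.96 CPM (mean ± SD of n = 3), which is a log2 change of -1.15 (SE 0.31, adjusted p = 0.00667) that held under every alternative. Its change was greater in size than that of any subunit. Of 17 polymerase III factors, 1 rose and 1 fell (11.8%), with a median of 0.03. GTF3C5, a subunit of TFIIIC, which binds inside transfer RNA genes, fell from 40.7 ± 2.44 CPM to 23.2 ± 4.69 CPM (log2 fold change -0.81, adjusted p = 0.00195). SNAPC3, of the complex that acts at small nuclear RNA promoters, rose by 0.70 on the log2 scale (adjusted p = 0.0153), a call lost without abemaciclib replicate 2.

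Of 30 polymerase II initiation factors tested, 5 rose and 4 fell, or 30.0%, with a median log2 fold change of -0.09. The TFIID subunit TAF13 rose from 20.2 ± 4.01 CPM to 40.2 ± 8.38 CPM (log2 fold change 1.00, adjusted p = 0.000466). ERCC2 and CDK7, subunits of TFIIH, had log2 fold changes of 0.91 and 0.71 (adjusted p = 0.0201 and 0.0179), and both calls were lost with DESeq2, under which 2 genes of the list were higher. That of ERCC2 was also lost without DMSO replicate 2, DMSO replicate 3 or abemaciclib replicate 1, and that of CDK7 without DMSO replicate 1, DMSO replicate 3 or abemaciclib replicate 3. The TFIID subunit TAF6 fell by 0.79 in log2 units (adjusted p = 0.000634) and GTF2A1, of TFIIA, fell by 0.62 (adjusted p = 0.00809). TAF7, also of TFIID, fell by 0.47 (adjusted p = 0.0136), a call lost without DMSO replicate 2, DMSO replicate 3 or abemaciclib replicate 2.

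Of 25 pausing and elongation factors tested, 3 rose and 7 fell, or 40.0%, with a median log2 fold change of -0.19. SSRP1, a subunit of the histone chaperone FACT, which also serves in DNA replication, fell from 242.8 ± 12.5 CPM to 132.7 ± 15.2 CPM (log2 fold change -0.87, SE 0.11, adjusted p = 3.55e-07). LEO1, of the PAF1 complex, fell by 0.67 in log2 units (adjusted p = 8.91e-05), and NELFE, of the pausing factor NELF, fell by 0.58 (adjusted p = 0.00949), a call lost without abemaciclib replicate 3. AFF4, the scaffold of the super elongation complex, rose from 78.9 ± 12.1 CPM to 129.1 ± 10.6 CPM (log2 fold change 0.71, adjusted p = 8.94e-05). RTF1 and SUPT6H were called at 0.30 and 0.36 (adjusted p = 0.0198 and 0.0417), and both calls were lost with the replicate block, under which 1 gene of the list was higher. That of RTF1 was also lost without DMSO replicate 2 or DMSO replicate 3. That of SUPT6H was lost whichever of the 6 libraries was left out, and with DESeq2, with total counts as the only scaling and with no filter.

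Of 14 factors that assemble and import the polymerases, 1 rose and 1 fell (14.3%), with a median log2 fold change of -0.04. URI1 and UXT are prefoldin-like partners in the complex that helps assemble the polymerases. URI1 rose from 195.7 ± 2.12 CPM to 281.4 ± 4.63 CPM (mean ± SD of n = 3), which is a log2 change of 0.52 (adjusted p = 0.000131), and UXT fell from 110.0 ± 10.5 CPM to 70.5 ± 5.47 CPM, a log2 fold change of -0.64 (adjusted p = 0.000287). Both calls held under every alternative. The mitochondrial polymerase POLRMT and its factors TFAM and TFB2M were tested, and 0 of the 3 passed in either direction, with 0 at an unadjusted p under 0.05 and 0 with DESeq2, and a median log2 fold change of 0.43.

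The direction of the 7 changed subunits was the same under all 12 alternatives, while the call of all but POLR2I depended on at least 1 library. With 1 library left out in turn, 1 to 4 subunits were higher and 2 to 3 lower. Only 1 was higher without DMSO replicate 1, without DMSO replicate 2 or without abemaciclib replicate 2. Calls over all genes also fell in these fits, in that order to 1058 of 11185, 981 of 11233 and 1072 of 11172 genes higher. With all libraries 1354 of 10863 were higher. Over the fits with 1 library left out, 981 to 1412 of all genes tested were higher and 1132 to 1529 lower.

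**Figure D4:**
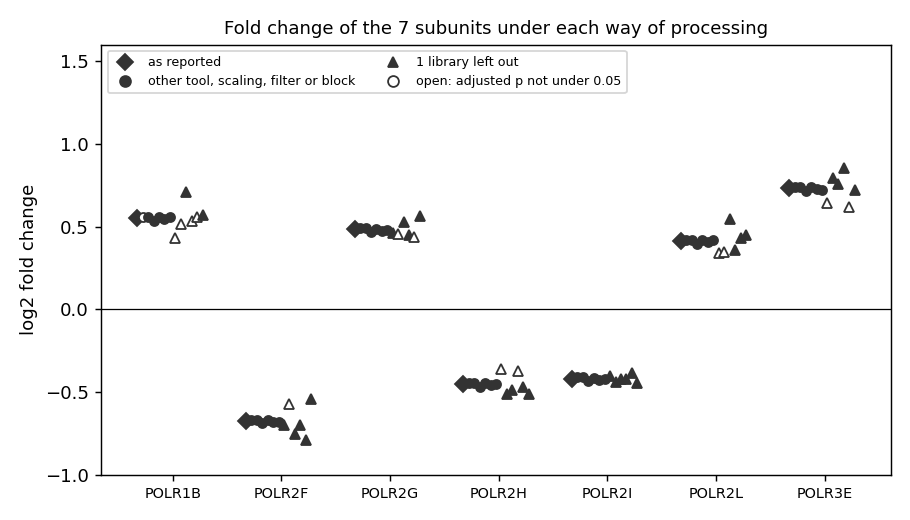
Log2 fold change of the 7 changed subunits as reported (diamonds), with another tool, scaling, filter or a replicate block (circles) and with 1 library left out (triangles). Open symbols had an adjusted p not under 0.05. The values of POLR2I lie between -0.45 and -0.38 and are all filled, while 5 of the 12 alternatives for POLR1B are open.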

How the data were processed

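RNA from 6 cultures of parental ZR-75-1 cells, 3 per treatment by their labels, was made into 3′ mRNA libraries. Per the labels and methods, the authors used BBDuk for trimming, STAR 2.7.5b for alignment to hg38 and counted reads per gene with featureCounts 2.0.1 on a GENCODE annotation, and the deposited values are these raw counts, without normalization. The strand setting of the counting is not given in the sources used here. Symbols, start sites and 3′ ends came from GENCODE release 44 on GRCh38 and were matched by Ensembl identifier for 60401 of 60656 genes. Overlap was taken over the last 500 bases of the MANE Select transcript, so other 3′ ends of a gene were not checked. Total counts were 3317860 to 4013156 per library. 

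Abemaciclib was compared with DMSO by edgeR 4.0.16 under R 4.3.3 (filterByExpr, then TMM, glmQLFit and glmQLFTest, no covariate), with Benjamini–Hochberg adjustment over 10863 genes and a threshold of 0.05. The code was tested on simulated data, in which fewer genes changed than were called here. There, 14 of 49 genes with a true fold of 1.5 were called (28.6%). A subunit that did not pass is therefore not shown to be unchanged. The standard error was the size of the log2 fold change divided by the square root of F. Alternatives were DESeq2 1.42.0, its size factors, total counts only, no filter, at least 10 counts in every library, a replicate block and each library left out. Named genes were the members and, from each list of factors, up to 3 called genes per direction with the largest fold change and a mean of at least 5 CPM. The members and lists were chosen with earlier results of these data known. Of the genes that the name rule finds, 1 was left out of every count of members and 1 enters the counts and medians but is not reported by itself here.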

Additional observations from a re-analysis of the deposited data

How the results depend on the processing

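The 7 calls rested on 3 libraries per group. The log2 fold change with 1 library left out was 0.43 to 0.71 for POLR1B, -0.79 to -0.54 for POLR2F, 0.44 to 0.56 for POLR2G, -0.51 to -0.36 for POLR2H, 0.34 to 0.55 for POLR2L and 0.62 to 0.85 for POLR3E, and each of these calls was lost in at least 1 of those fits. With DESeq2 the call of POLR1B was lost (log2 fold change 0.56), which left 0 polymerase I subunits higher, and the polymerase II initiation factors had 2 higher. The median of the subunits of polymerase II alone was 0.0895 with DESeq2 and 0.0851 with no filter, both of which bring in the sparse POLR2J3 identifiers, against -0.01 as reported. With at least 10 counts in every library, 2 assembly factors were lower. Same-numbered libraries did not deviate together (correlations of -0.04, 0.01 and -0.09), so the replicate numbers were not taken as pairs. With the replicate block the pausing and elongation factors had 1 higher in place of 3, 4 subunits were higher and 3 lower as before, and over all genes 1139 were higher and 1280 lower, against 1354 and 1442.

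With 1 library left out, the subunits called higher were 1 to 4 in all, with a median of 0.0423 to 0.16. Called higher were 0 to 1 of polymerase I alone, 0 to 1 of polymerase II alone, 0 to 1 of polymerase III alone and 0 to 1 of those in all 3 enzymes, of which 1 to 2 were lower. Beside these counts and those of the factors below, 981 to 1412 of the 11172 to 11272 genes tested in these fits were higher and 1132 to 1529 lower. The medians of the subunits were 0.0344 to 0.21 for polymerase I, 0.10 to 0.29 for polymerase III, -0.10 to 0.11 for polymerase II, 0.00 to 0.33 for POLR1C and POLR1D and -0.0594 to 0.11 for the subunits of all 3. For the factors, the median was -0.32 to -0.0667 for polymerase I, -0.0224 to 0.11 for polymerase III, -0.12 to -0.013 for polymerase II initiation, -0.22 to -0.11 for pausing and elongation, -0.09 to 0.01 for assembly and 0.19 to 0.55 for mitochondrial transcription. Factors called higher were 0 to 2 for polymerase III, 2 to 5 for initiation, 1 to 3 for pausing and elongation, 1 to 2 for assembly and 0 to 1 for mitochondrial transcription, and those lower were 2 to 4 for initiation, 4 to 6 for pausing and elongation and 1 to 2 for assembly. The cause of these shifts was not tested. No scaling moved the median of all genes by over 0.1. Members with few counts, such as POLR3F and POLR3G, had standard errors near 0.5, so a change of that size could not be told from 0.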
